A study of Mus musculus with 2 samples.

Results

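The small leucine-rich proteoglycans (SLRPs) of the mouse mitral valve were described from 9 genes, Dcn, Bgn, Aspn, Lum, Fmod, Prelp, Omd, Ogn and Chad, out of 32285 features in each deposited count matrix. Each of the 9 symbols matched 1 row. The genes were chosen by name, with earlier results of these data known, and the cells in which they were described were selected on measured transcript counts. The data came from 1 library of WT mitral valves and 1 library of mgR mitral valves, both from mice 12 weeks of age. The mgR mice were homozygous for a hypomorphic allele of Fbn1 (Fbn1 mgR/mgR), made by insertion of a neomycin cassette, that lowers fibrillin-1. The methods of the study describe WT littermate controls on a C57BL/6J background, and neither library received a drug. An n of 3 is stated for the single-cell data, but not how those mice were divided among or pooled in the libraries. With 1 library per genotype no difference has a replicate check, no test was made, and genotype and library cannot be told apart.

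SLRPs are secreted proteins built from leucine-rich repeats, and most carry chondroitin, dermatan or keratan sulfate chains. They coat collagen fibrils, control how thick the fibrils grow, and bind growth factors such as TGF-β. The valve leaflet is a layered sheet of collagen, proteoglycan and elastic fibers made mainly by interstitial fibroblasts, and proteoglycan accumulation is a hallmark of its myxomatous degeneration. Decorin (Dcn), biglycan (Bgn) and asporin (Aspn) form class I of the family. Lumican (Lum), fibromodulin (Fmod), prolargin (Prelp) and osteomodulin (Omd) form class II. Osteoglycin (Ogn) belongs to class III, and chondroadherin (Chad), first known from cartilage, to class IV.

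Transcripts were counted as unique molecular identifiers (UMIs), each standing for 1 captured RNA molecule. The WT library held 5381844 UMIs in 1104 barcodes, of which 875 were kept as cells, and the mgR library held 28215539 UMIs in 3802 barcodes, of which 3438 were kept. A barcode was kept when 200 to 5000 genes were detected in it and no more than 10% of its UMIs were mitochondrial, and the median UMI count of kept cells was 5033 in WT and 7370 in mgR. The libraries shared 2 barcode sequences before these filters and 0 after them. Fibroblasts were cells with at least 10 UMIs of Col1a2 and Col3a1 together, called the collagen limit here. They numbered 142 of 875 WT cells (16.2%) and 538 of 3438 mgR cells (15.6%), with median counts of 6451 and 7962 UMIs. All 6 fibroblast markers (Col1a1, Col1a2, Col3a1, Col6a3, Pdgfra and Postn) were detected in both. Of these, Col1a2 and Col3a1 chose the cells, so their detection supports nothing. Fbn1, the targeted gene, was at 215 CPM (counts per 1000000 UMIs) in WT fibroblasts and 163 CPM in mgR fibroblasts, a ratio of 0.759 (95% interval 0.649 to 0.892).

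Some properties of the libraries touch every comparison below. Of fibroblasts, 25.4% in WT and 64.7% in mgR held UMIs of the female transcript Xist and none of the Y-linked genes. The converse pattern, Y-linked UMIs alone, was found in 50% and 22.1%, so both libraries held cells of both sexes in different proportions, although the study describes using male mice for its comparisons. The 8 macrophage markers summed to 128.5 CPM in WT fibroblasts and 430.4 CPM in mgR fibroblasts. The 8 endothelium markers summed to 83.91 and 112.5 CPM, and the 7 mural markers to 236.9 and 302.7 CPM. In WT fibroblasts Fcgr1 and Cldn5 were at 0 among these. Larger than any of these sums was that of the 5 erythroid markers, at 3159 CPM in WT and 2703 CPM in mgR fibroblasts. The 5 monocyte markers summed to 66.92 and 175.4 CPM, and the 8 T or NK cell markers to 0 and 22.67 CPM. The part of these differences in the results was not tested. Intervals in parentheses are exact, at 95%, and cover counting error only.

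Positions on GRCm38 place most of the 9 genes in clusters of the family. Dcn (ENSMUSG00000019929, chr10:97479609-97518143) and Lum (ENSMUSG00000036446, chr10:97565128-97572703) are neighbors on the plus strand, followed by Kera and Epyc. Aspn (ENSMUSG00000021388, chr13:49544443-49567565), Omd (ENSMUSG00000048368, chr13:49582462-49592822) and Ogn (ENSMUSG00000021390, chr13:49608046-49624501) follow each other on the plus strand after Ecm2, and all 3 lie within the span of Cenpp on the other strand. Prelp (ENSMUSG00000041577, chr1:133910304-133921414, minus strand) lies beside Fmod (ENSMUSG00000041559, chr1:134037254-134048277, plus strand), and Prelp overlaps the antisense gene Gm15851. Bgn (ENSMUSG00000031375, chrX:73483602-73495933) and Chad (ENSMUSG00000039084, chr11:94565047-94569127) stand alone, and Chad overlaps Acsf2 on the other strand. All 9 are annotated as protein coding.

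The promoters of 4 members are shown because their genes set the fibroblast types apart in the sections that follow. Fmod, Prelp and Chad were highest in Comp/Scx-type fibroblasts, and Ogn is given as the member that was lower there in both libraries. The sequences are from RefSeq (GRCm38.p6), run from 250 bases before to 50 bases after the annotated start, and are written 5′ to 3′ on the strand of the gene. RefSeq entries were matched for 7 of the 9 members. Capitals mark TATAAA, the TATA box core, on either strand, and CANNTG, the E-box, which reads the same on both strands. The E-box is the motif bound by basic helix-loop-helix factors such as scleraxis (Scx).
Fmod: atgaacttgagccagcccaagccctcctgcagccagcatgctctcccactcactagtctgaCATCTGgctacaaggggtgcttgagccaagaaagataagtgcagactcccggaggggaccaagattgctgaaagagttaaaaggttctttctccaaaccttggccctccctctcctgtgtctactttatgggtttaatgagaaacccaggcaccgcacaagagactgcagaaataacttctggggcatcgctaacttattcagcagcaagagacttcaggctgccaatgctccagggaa
Prelp: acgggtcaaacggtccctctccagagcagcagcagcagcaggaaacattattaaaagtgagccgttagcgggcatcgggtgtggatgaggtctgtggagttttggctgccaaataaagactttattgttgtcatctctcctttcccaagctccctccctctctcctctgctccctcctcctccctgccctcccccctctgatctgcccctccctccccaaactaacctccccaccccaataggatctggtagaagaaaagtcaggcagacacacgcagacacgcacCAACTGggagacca
Chad: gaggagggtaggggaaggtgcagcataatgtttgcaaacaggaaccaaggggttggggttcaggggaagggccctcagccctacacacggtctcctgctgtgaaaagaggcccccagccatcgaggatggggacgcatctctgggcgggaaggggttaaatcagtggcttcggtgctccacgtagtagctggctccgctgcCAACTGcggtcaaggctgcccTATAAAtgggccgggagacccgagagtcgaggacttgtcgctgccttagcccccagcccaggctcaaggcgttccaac
Ogn: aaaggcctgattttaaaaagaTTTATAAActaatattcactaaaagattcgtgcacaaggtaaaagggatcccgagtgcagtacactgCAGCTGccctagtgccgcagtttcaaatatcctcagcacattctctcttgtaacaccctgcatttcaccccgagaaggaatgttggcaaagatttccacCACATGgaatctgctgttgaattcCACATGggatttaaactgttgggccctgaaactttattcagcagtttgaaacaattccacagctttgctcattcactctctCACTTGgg
These are chr1:134037004-134037303 on the plus strand for Fmod, chr1:133921352-133921651 on the minus strand for Prelp, chr11:94564797-94565096 on the plus strand for Chad and chr13:49607765-49608064 on the plus strand for Ogn.

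Fmod, Prelp and Chad each held 1 E-box in this window and Ogn held 4. Of the other 3 members with an entry, Bgn held 1, Aspn 2 and Omd 0. At least 1 CANNTG was present in 72.3% of all 32851 promoters of this length, so its presence in 6 of the 7 members sets them little apart. TATAAA was present in 13.6% of all promoters. It occurred once in Chad, 2 times in Aspn and 2 times in Ogn, where the pair overlaps on opposite strands. The SOX-type motif AACAATG, present in 3.78% of promoters, was in none of the 7. These matches describe letters in the window and nothing about binding.

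Across cell classes, SLRP transcripts were concentrated in fibroblasts, with smaller amounts counted in endothelium-like cells. The 9 genes made up 2.73% of all UMIs of WT fibroblasts and 2.60% of those of mgR fibroblasts. In endothelium-like cells they made up 0.332% and 0.508%, and in macrophage-like cells 0.00372% and 0.00776%. Dcn alone supplied 73.1% and 71.8% of the SLRP UMIs of fibroblasts and 86.6% and 86.0% of those of endothelium-like cells. CPM from this 3-prime assay counts molecules and is not scaled to transcript length, so levels of different genes are compared on that scale.

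**Figure D1:**
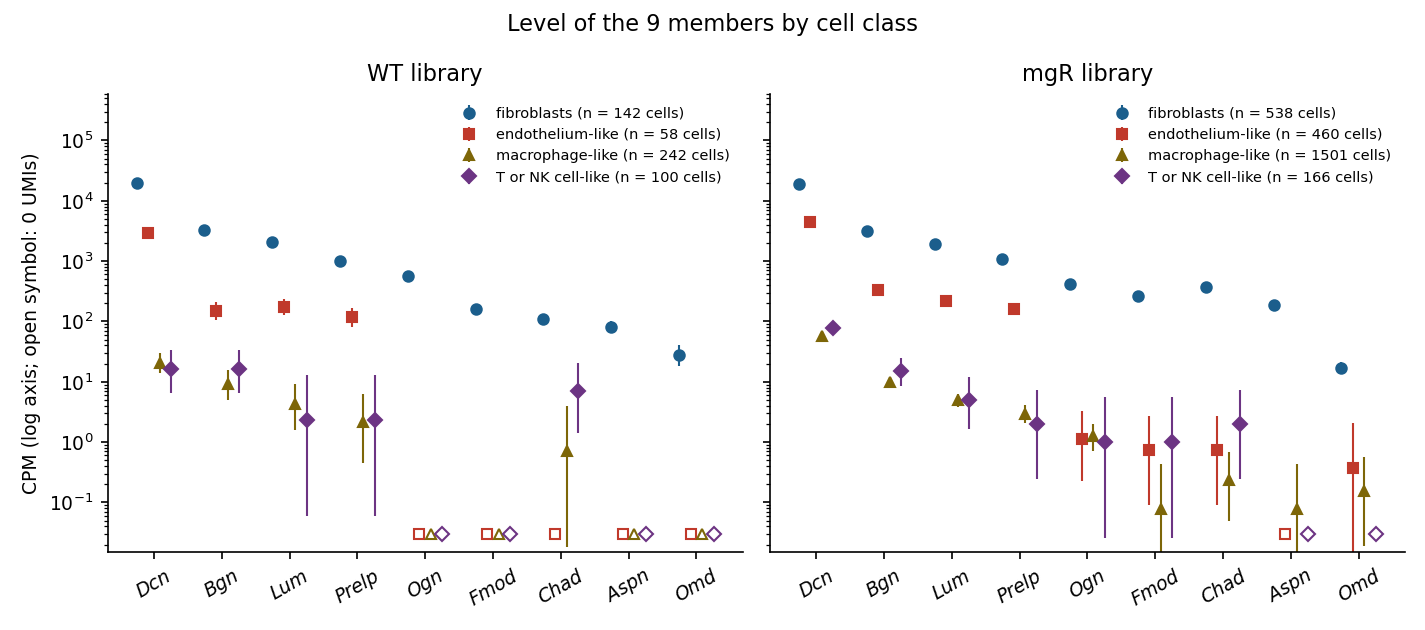
Level of the 9 SLRP genes in 4 cell classes of the WT library (left) and the mgR library (right), as CPM on a log axis. Points are sums over the cells of a class, bars are exact 95% Poisson intervals, and open symbols at the bottom mark 0 UMIs. Fibroblasts are highest for every gene, and endothelium-like cells hold at least 118.6 CPM of Dcn, Bgn, Lum and Prelp and 0 to 3 UMIs of each of the others.

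The order of levels in WT fibroblasts began with Dcn, the main regulator of fibril diameter in many tissues, at 19950 CPM (19666 to 20238). Bgn, its closest relative, followed at 3335 CPM (3219 to 3454), then Lum, the keratan sulfate proteoglycan of cornea and skin, at 2037 CPM (1947 to 2130). Next were Prelp, which anchors collagen to heparan sulfate, at 1019 CPM (955 to 1085) and Ogn at 574.6 CPM (527 to 625). These top 5 genes did not overlap in their intervals. Below them stood Fmod at 163.6 CPM (139 to 192), Chad at 110.5 CPM (90.3 to 134), Aspn at 80.72 CPM (63.6 to 101) and Omd at 27.62 CPM (18.0 to 40.5). The intervals of Chad and Aspn overlapped, and the other neighbors in this order were apart. In mgR fibroblasts the top 5 kept their order, at 18698, 3105, 1905, 1072 and 424.6 CPM. Chad came next with 371.4 CPM, ahead of Fmod with 263.5 CPM, Aspn with 187.8 CPM and Omd with 16.73 CPM.

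Detection per cell followed this order for the top 5 genes. When each cell was thinned to 2000 UMIs, which left out 2 WT and 3 mgR fibroblasts, Dcn was found in 100% of WT and 99.6% of mgR fibroblasts, and Bgn in 97.9% and 96.6%. Lum was found in 94.3% and 89.0%, Prelp in 69.3% and 68.2%, and Ogn in 45.0% and 40.0%. The 4 remaining genes each marked a minority. Fmod was in 15.7% of fibroblasts in WT (10.1 to 22.8) and in 19.6% in mgR (16.3 to 23.2), and Aspn in 12.9% (7.80 to 19.6) and 21.7% (18.3 to 25.4). Chad was in 5.0% (2.03 to 10.0) and 12% (9.34 to 15.0), and Omd in 5.71% (2.50 to 10.9) and 3.55% (2.15 to 5.49). A fibroblast held a median of 4 members at this depth in either library, and all of Dcn, Bgn and Lum were found together in 92.9% of WT and 85.6% of mgR fibroblasts. Without thinning the shares were higher, for example 25.4% and 42.6% for Aspn.

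Endothelium-like cells, 58 in WT and 460 in mgR, held Dcn at 2871 CPM (2662 to 3091) in WT and 4369 CPM (4291 to 4449) in mgR. At 2000 UMIs, Dcn was found in 83.7% of 43 such cells in WT and in 83.6% of 427 in mgR. Macrophage-like cells, which are not a known source of decorin, gave 20.75 CPM and 57.87 CPM, with Dcn in 4.72% and 5.90% of cells at that depth. The median depth was 4222.5 and 5298.5 UMIs in endothelium-like cells and 5716 and 8179 UMIs in macrophage-like cells, so the class with the higher Dcn was the shallower one. Bgn was at 151.3 and 327.9 CPM, Lum at 175.8 and 219.4 CPM and Prelp at 118.6 and 163.2 CPM in endothelium-like cells. The other 5 genes were at or near 0 there. In WT none of the 5 had a UMI, which allows up to 12.3 CPM, and in mgR Aspn had 0 UMIs, which allows up to 1.11 CPM, Fmod and Chad had 2 each, Omd 1 and Ogn 3.

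The proportions within the family also differed between these classes. For every 100 Dcn UMIs, WT fibroblasts held 16.7 Bgn UMIs (16.1 to 17.4) and WT endothelium-like cells 5.27 (3.68 to 7.34). In mgR the values were 16.6 (16.3 to 16.9) and 7.50 (7.0 to 8.03). Ogn stood at 2.27 per 100 Dcn UMIs in mgR fibroblasts and 0.0254 in mgR endothelium-like cells. Among endothelium-like cells with 0 UMIs of Col1a2 and Col3a1, 44 in WT and 374 in mgR, Dcn was still at 2305 and 4128 CPM and was found in 81.8% and 90.1% of cells. Leaving out cells marked as doublets by Scrublet gave 2474 and 4519 CPM. Over all endothelium-like cells, the 8 endothelium markers summed to 3296 and 3484 CPM, and all 8 were detected in each library. The fibroblast markers summed to 862.8 and 687.9 CPM over all of them, with Col1a1 at 0 in WT, and to 6014 and 5286 CPM in fibroblasts. The part of fibroblast RNA in the SLRP UMIs of endothelium-like cells was not tested. The mgR to WT ratio of Dcn in endothelium-like cells was 1.52 (1.41 to 1.64), and that of Bgn was 2.17 (1.56 to 3.10). Macrophage markers in them summed to 400.7 CPM in WT and 632.4 CPM in mgR, and their part in these ratios was not tested.

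Elsewhere the members were sparse. The 24 melanocyte-like cells of WT held 14 UMIs of Bgn (220.4 CPM) and 5 of Prelp (78.73 CPM) but 0 of Dcn, which allows up to 47.2 CPM. The 8 such cells of mgR held 2 UMIs of Prelp and 0 of the other 8 genes. T or NK cell-like and dendritic cell-like cells gave at most 16.16 CPM of any member in WT. Dcn had 0 UMIs in 22 monocyte-like, 17 neutrophil-like and 6 B cell-like cells of WT, which allows up to 32.0, 64.7 and 259 CPM, so low levels were not detectable there. In mgR, Dcn was at 294.3 CPM in 47 neutrophil-like cells, where 51 of its 55 UMIs lay in 1 cell. It was at 154.9 CPM in 211 dendritic cell-like cells, where 111 of its 368 UMIs lay in 1 cell.

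Fibroblasts were then divided by marker UMIs into 2 types. Comp/Scx-type cells had at least 2 UMIs of Comp, a cartilage and tendon matrix protein, and Scx together, and more of these than of Ptx3, Igfbp3 and Smoc2. Ptx3/Igfbp3/Smoc2-type cells had the converse, and the rest were neither. Fmod also marks the former type, but was left out of the split because it is itself one of the 9 genes. Comp/Scx-type cells were 41 of 142 WT fibroblasts (28.9%, 21.6 to 37.1) and 202 of 538 mgR fibroblasts (37.5%, 33.4 to 41.8). Ptx3/Igfbp3/Smoc2-type cells were 74 (52.1%, 43.6 to 60.6) and 225 (41.8%, 37.6 to 46.1), and neither type took 27 and 111 cells. Of 2974 erythroid marker UMIs in WT fibroblasts, 53 lay in the Comp/Scx type and 101 in the Ptx3/Igfbp3/Smoc2 type. In mgR these were 94 and 106 of 12277, so most lay in cells of neither type in both libraries. Their part in the levels of those cells was not tested. The marker sums differed by at most 1 UMI in 20.4% of WT and 24.2% of mgR fibroblasts, so the border is not sharp.

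These shares depended on the collagen limit. The fibroblast-like cluster with the highest Comp level is called the Comp cluster, and that with the highest Ptx3 level the Ptx3 cluster. Of the Comp cluster cells, only 23.4% in WT but 45.1% in mgR passed the collagen limit, against 66.9% and 67.6% of Ptx3 cluster cells. Of fibroblasts past the limit, the Comp cluster held 33.8% in WT (26.1 to 42.2) and 35.9% in mgR (31.8 to 40.1), nearly level. Over all fibroblast-like cells, without the limit, the Comp cluster held 59.6% of 344 WT cells (54.2 to 64.8) and 46.8% of 915 in mgR (43.5 to 50.1). This was opposite in direction to the split by marker UMIs. Cells just outside the limit, with 5 to 9 collagen UMIs, numbered 85 in WT and 207 in mgR, and cells just inside, with 10 to 14, numbered 50 and 158. Dcn was at 15921 CPM just outside and 18033 CPM just inside in WT, and at 17603 and 19349 CPM in mgR. Chad was at 32.34 and 197.3 CPM in WT and at 113.6 and 241.0 CPM in mgR.

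Between the types, 4 of the 8 members with at least 100 UMIs were higher by 1.5-fold or more in Comp/Scx-type cells of both libraries, namely Fmod, Prelp, Chad and Aspn, and 0 were lower. Among all 5593 genes compared in the same way, 3.68% were higher and 8.87% lower. Chad, with 0 UMIs in the other type of WT and 6 in that of mgR, passed the limit of 100 UMIs only through the Comp/Scx type. Fmod was known beforehand to mark that type. The count that holds them is thus a description and no support. Fmod, which binds collagen and guides cross-linking, was at 456.0 CPM in Comp/Scx-type cells of WT and 21.64 CPM in Ptx3/Igfbp3/Smoc2-type cells, a ratio of 21.1 (11.1 to 45.0). In mgR it was at 614.4 and 25.33 CPM, a ratio of 24.3 (18.2 to 33.1). The intervals of the libraries overlapped. Fmod was found in 58.5% and 61.4% of Comp/Scx-type cells and in 9.46% and 12.4% of Ptx3/Igfbp3/Smoc2-type cells.

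**Figure D2:**
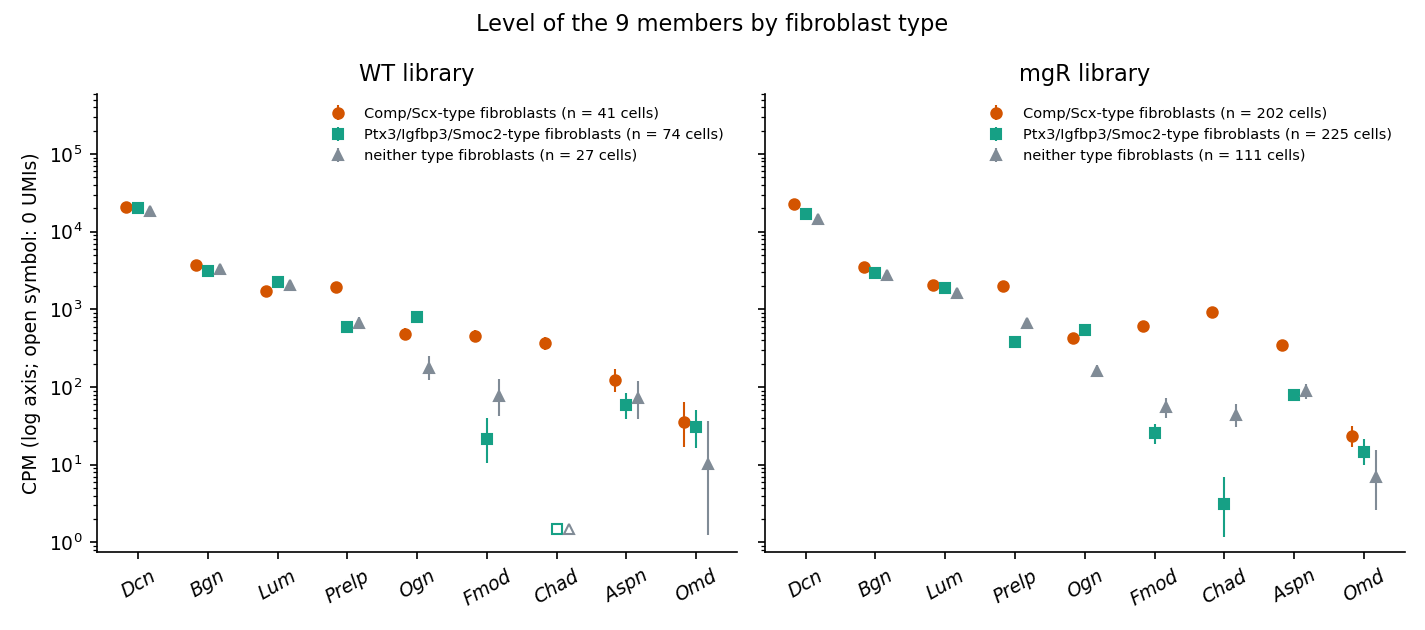
Level of the 9 SLRP genes in Comp/Scx-type, Ptx3/Igfbp3/Smoc2-type and remaining fibroblasts of the WT library (left) and the mgR library (right), as CPM on a log axis with exact 95% Poisson intervals. Open symbols mark 0 UMIs. Chad, Fmod and Prelp stand far apart between the types in both libraries, whereas Dcn, Bgn and Lum lie close together.

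Chad, which links chondrocytes to collagen in cartilage, was almost confined to the Comp/Scx type in the fibroblasts of both libraries. In WT all 104 of its fibroblast UMIs lay in 9 of 41 Comp/Scx-type cells, with 0 UMIs in the 74 cells of the other type. The level was 56.6-fold higher against a floor of 3 counts, and the exact interval of the ratio began at 45.2. In mgR 1644 of 1687 UMIs (97.5%) lay in 72 of 202 Comp/Scx-type cells, and 6 UMIs in 1 cell gave 3.166 CPM in the other type. Chad was thus a gene of few cells. A WT cell with any Chad UMI held a median of 9 and at most 47, and an mgR cell a median of 12.5 and at most 91. By cluster in place of marker UMIs the Chad ratio was 195 (34.3 to 7793) in WT and 81.3 (57.7 to 119) in mgR.

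Prelp was at 1948 CPM in Comp/Scx-type and 597.4 CPM in Ptx3/Igfbp3/Smoc2-type cells of WT, a ratio of 3.26 (2.82 to 3.78), and at 1994 and 382.1 CPM in mgR, a ratio of 5.22 (4.82 to 5.66). By marker UMIs the Comp/Scx-type levels were close, and the lower level in the other type of mgR made the ratio larger. With types taken from clusters past the collagen limit, the Comp/Scx type was at 1817 CPM in WT and 2169 CPM in mgR. The other type was then at 606.9 and 462.5 CPM, so both levels differed. Aspn, a class I member that lacks a glycosaminoglycan chain and restrains TGF-β in cartilage, was at 123.7 and 58.44 CPM in WT, a ratio of 2.12 (1.24 to 3.64). In mgR it was at 349.0 and 79.69 CPM, a ratio of 4.38 (3.66 to 5.27). The WT ratio of Aspn rested on 35 and 27 UMIs and was 0.987 (0.590 to 1.62) with types taken from clusters, where mgR gave 3.66.

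The members with the highest levels hardly separated the types. Bgn had ratios of 1.19 (1.10 to 1.29) in WT and 1.21 (1.16 to 1.25) in mgR. Dcn had 1.04 (1.0 to 1.07) and 1.36 (1.34 to 1.38), and Lum 0.765 (0.685 to 0.853) and 1.07 (1.02 to 1.12). With types taken from clusters, Bgn had 1.05 (0.973 to 1.13) in WT and 0.989 (0.955 to 1.02) in mgR. Dcn had 0.979 (0.950 to 1.01) and 1.35 (1.33 to 1.37), and Lum 1.05 (0.954 to 1.15) and 1.21 (1.16 to 1.27) by that split. Ogn was the member that was lower in Comp/Scx-type cells in both libraries, at 487.8 against 796.5 CPM in WT, a ratio of 0.612 (0.50 to 0.747), and at 431.5 against 537.2 CPM in mgR, a ratio of 0.803 (0.731 to 0.883). Omd, too sparse for the comparison with 24 UMIs over both types of WT, had 1.17 (0.464 to 2.82) and 1.58 (0.959 to 2.65).

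Across single fibroblasts, Fmod and Prelp had the highest correlation of the 36 pairs of members in both libraries, with Pearson's r of 0.53 over 142 WT cells and 0.67 over 538 mgR cells on log-scaled counts. Fmod and Chad followed in mgR at 0.58, with 0.44 in WT. Dcn and Lum, the neighbors on chromosome 10, had 0.31 and 0.38, and the neighbors Omd and Ogn 0.27 and 0.18. Aspn and Chad differed most between the libraries among pairs with Chad, at 0.02 in WT and 0.42 in mgR. The cells of a library share its depth and its mix of types, so these values are descriptions.

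The genes most like each member, among 8391 compared and ranked by the smaller r of the libraries, were as follows. Fmod was most like Cilp2, a cartilage intermediate layer protein (0.57 in both), Kcnj15 (0.55 in both) and Fibin (0.54 and 0.60). Prelp was most like Fmod, Ecrg4 (0.51 and 0.62) and Fxyd6 (0.49 and 0.57). Chad was most like Col8a2 (0.63 and 0.49), Spp1, which encodes osteopontin (0.47 in both), and Col11a2, a cartilage collagen (0.49 and 0.45).

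Ogn was most like Ccn5 (0.56 and 0.53), Gpx3 (0.51 and 0.39) and Sfrp2, a secreted Wnt modulator (0.39 and 0.46), and Omd was most like Ccn5 (0.24 and 0.19), Ogn and Angptl7 (0.22 and 0.17). Dcn was most like Gsn (0.47 and 0.59), Ccdc80 (0.46 and 0.40) and Fbln1 (0.33 and 0.41), and Lum was most like Dcn, Dpt (0.27 and 0.29) and Ccdc80 (0.27 and 0.27). Bgn was most like Serpinf1 (0.44 and 0.38), Sparc (0.37 and 0.42) and Col1a1 (0.37 and 0.38), which encode secreted and collagen matrix proteins. Aspn had the weakest partners of the class I members, Abi3bp (0.26 and 0.35), Tsc22d3 (0.23 and 0.29) and Sema3c (0.22 and 0.21).

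Between the libraries, Chad, Aspn and Fmod were higher in mgR fibroblasts by at least 1.5-fold, Omd was lower by that much, and the most abundant members were nearly level. Thus 3 of 9 members were higher and 1 of 9 lower, where 5.77% and 6.37% of 6343 genes were. Omd, the lower one, passed the limit of 100 UMIs only through its level in WT, so its place in this count is a description and no support. The median log2 ratio of the members was -0.09, and that of all genes -0.023. Dcn (0.937, 0.923 to 0.952), Bgn (0.931, 0.896 to 0.968) and Lum (0.935, 0.890 to 0.983) were each slightly lower in mgR. Each interval stayed below 1, and Prelp had a ratio of 1.05 (0.982 to 1.13). Fewer RNA molecules per cell and fewer cells of high expression cannot be told apart from these sums. Per cell, the median of Dcn was higher in mgR, at 17881 CPM in WT and 18342 CPM in mgR. Both of its quartiles were lower, 12430 and 26994 CPM in WT against 11199 and 25634 CPM in mgR. The medians of Bgn (3260 and 2871 CPM), Lum (1850 and 1657 CPM) and Prelp (632.2 and 555.7 CPM) were lower in mgR.

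**Figure D3:**
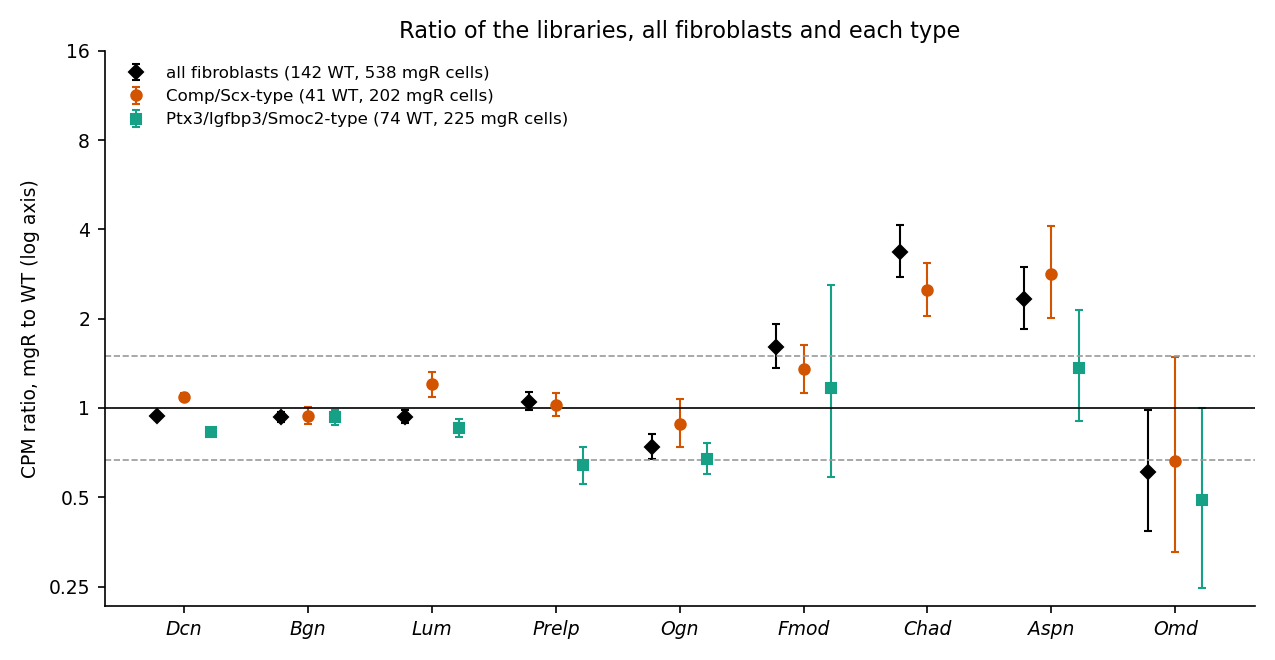
CPM ratio of mgR to WT for the 9 SLRP genes in all fibroblasts, in Comp/Scx-type and in Ptx3/Igfbp3/Smoc2-type fibroblasts, on a log axis with exact 95% intervals for counting error. The solid line marks equal levels and the dashed lines a 1.5-fold difference. Chad and Aspn lie above the upper dashed line in all fibroblasts and in the Comp/Scx type, and Fmod lies above it in all fibroblasts. Omd, on few UMIs, lies below the lower one in every group shown, and Prelp lies below it in the Ptx3/Igfbp3/Smoc2 type. Chad has no ratio in the Ptx3/Igfbp3/Smoc2 type, where WT had 0 UMIs.

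Chad had 104 UMIs in WT fibroblasts (110.5 CPM) and 1687 in mgR fibroblasts (371.4 CPM), a ratio of 3.36 (2.76 to 4.14). It was found in 9 of 142 and 78 of 538 cells, 6.34% and 14.5%. A single WT cell held 47 of the 104 UMIs, and without the highest cell of each library the ratio was 5.76. Within Comp/Scx-type cells it was 367.6 CPM in WT and 916.6 CPM in mgR, a ratio of 2.49 (2.04 to 3.07), which turned with the sex-linked pattern of the cells. It was 0.386 (0.304 to 0.497) in such cells with Xist UMIs alone, 5 in WT and 147 in mgR, and 15.7 (8.39 to 33.2) in those with Y-linked UMIs alone, 20 and 27. With both libraries weighted to the same mix of types the ratio was 2.56.

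Aspn had 76 and 853 UMIs, or 80.72 and 187.8 CPM, a ratio of 2.33 (1.84 to 2.98). Its ratio was 2.82 (2.01 to 4.09) in the Comp/Scx type, 1.36 (0.901 to 2.14) in the Ptx3/Igfbp3/Smoc2 type and 1.25 (0.701 to 2.39) in the remaining cells. The mgR cells with an Aspn UMI were also more frequent in the Comp/Scx type, 120 of 202 (59.4%) against 13 of 41 in WT (31.7%), at median depths of 8606.5 and 6904 UMIs. Fmod had 154 and 1197 UMIs, or 163.6 and 263.5 CPM, a ratio of 1.61 (1.36 to 1.92). Within the Comp/Scx type the ratio of Fmod was 1.35 (1.12 to 1.63), and with an equal mix of types it was 1.29, both under 1.5-fold. With types taken from clusters it was above 1.5-fold, at 1.61 (1.34 to 1.93) past the collagen limit and 2.47 (2.12 to 2.91) over all cells of the Comp cluster.

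Ogn, the class III member, was at 574.6 CPM in WT and 424.6 CPM in mgR, a ratio of 0.739 (0.671 to 0.814). It was at 0.674 (0.598 to 0.762) in Ptx3/Igfbp3/Smoc2-type cells and 0.885 (0.737 to 1.07) in Comp/Scx-type cells. The latter turned direction with types taken from clusters, at 1.30 (1.05 to 1.64) past the limit and 1.59 (1.33 to 1.90) over all cells of the Comp cluster. Omd, named for its abundance in bone matrix, rested on 26 and 76 UMIs, with a ratio of 0.606 (0.384 to 0.986). Without thinning, Omd was found in 13.4% of WT and 11.9% of mgR fibroblasts, at unequal median depths of 6451 and 7962 UMIs. With cells thinned to equal depth, the shares were 5.71% (2.50 to 10.9) in WT and 3.55% (2.15 to 5.49) in mgR. These intervals overlapped.

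Within the types, 2 of the 8 members with at least 100 UMIs were higher by 1.5-fold or more in the Comp/Scx type of mgR (Aspn and Chad) and 0 were lower, where 9.26% of 3024 genes were higher and 9.13% lower. In the Ptx3/Igfbp3/Smoc2 type 0 of 6 were higher and 1, Prelp, was lower, where 7.24% of 3534 genes were higher and 6.20% lower. Prelp was at 597.4 and 382.1 CPM there, a ratio of 0.640 (0.556 to 0.737). With types taken from clusters it was within 1.5-fold, at 0.762 past the collagen limit and 0.811 over all cells. Dcn had a ratio of 1.09 (1.06 to 1.12) in the Comp/Scx type and 0.830 (0.811 to 0.849) in the other type. Lum had 1.20 (1.09 to 1.32) and 0.854 (0.797 to 0.916), and the former was 1.04 (0.959 to 1.13) with types taken from clusters. Macrophage markers summed to 17.67 CPM in WT and 533.5 CPM in mgR cells of the Comp/Scx type and to 21.64 and 324.0 CPM in the other type, with C1qa, Csf1r, Adgre1, Mrc1 and Fcgr1 at 0 in both types of WT, and their part in these ratios was not tested.

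**Figure D4:**
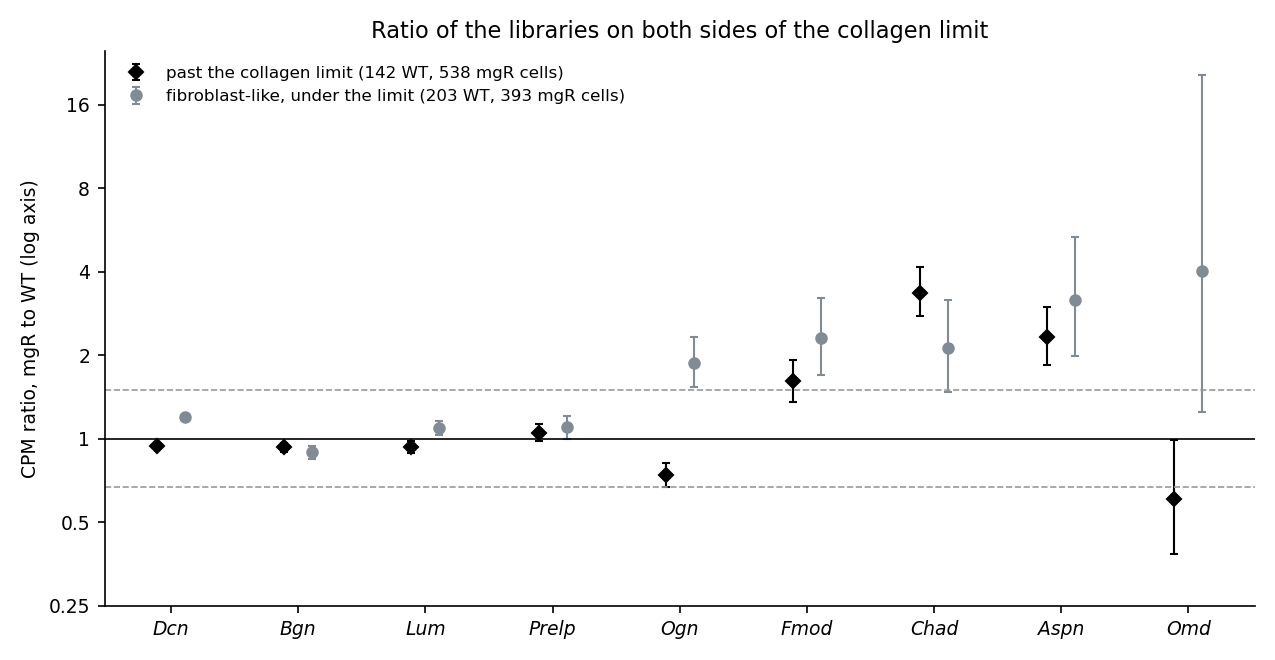
CPM ratio of mgR to WT for the 9 SLRP genes in fibroblasts past the collagen limit and in fibroblast-like cells under it, on a log axis with exact 95% intervals for counting error. The solid line marks equal levels and the dashed lines a 1.5-fold difference. Fmod, Chad and Aspn lie above 1.5-fold on both sides of the limit, whereas Ogn and Omd lie on opposite sides of 1.

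The collagen limit changed the direction for some members. Under it, 203 WT and 393 mgR cells of the fibroblast-like clusters gave ratios of 3.17 for Aspn (1.98 to 5.32), 2.31 for Fmod (1.69 to 3.21) and 2.12 for Chad (1.47 to 3.16), the direction seen past the limit. Ogn, however, had 136.3 CPM in WT and 255.8 CPM in mgR, a ratio of 1.88 (1.53 to 2.32). Omd had 3 UMIs in WT and 31 in mgR, a ratio of 4.01 (1.25 to 20.5). Dcn had 1.20 (1.17 to 1.22). With all fibroblast-like cells in place of the limit, Ogn was at 1.03, Omd at 1.01 and Dcn at 1.06, so the lower Ogn and Omd of mgR held past the collagen limit and not over all fibroblast-like cells.

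**Figure D5:**
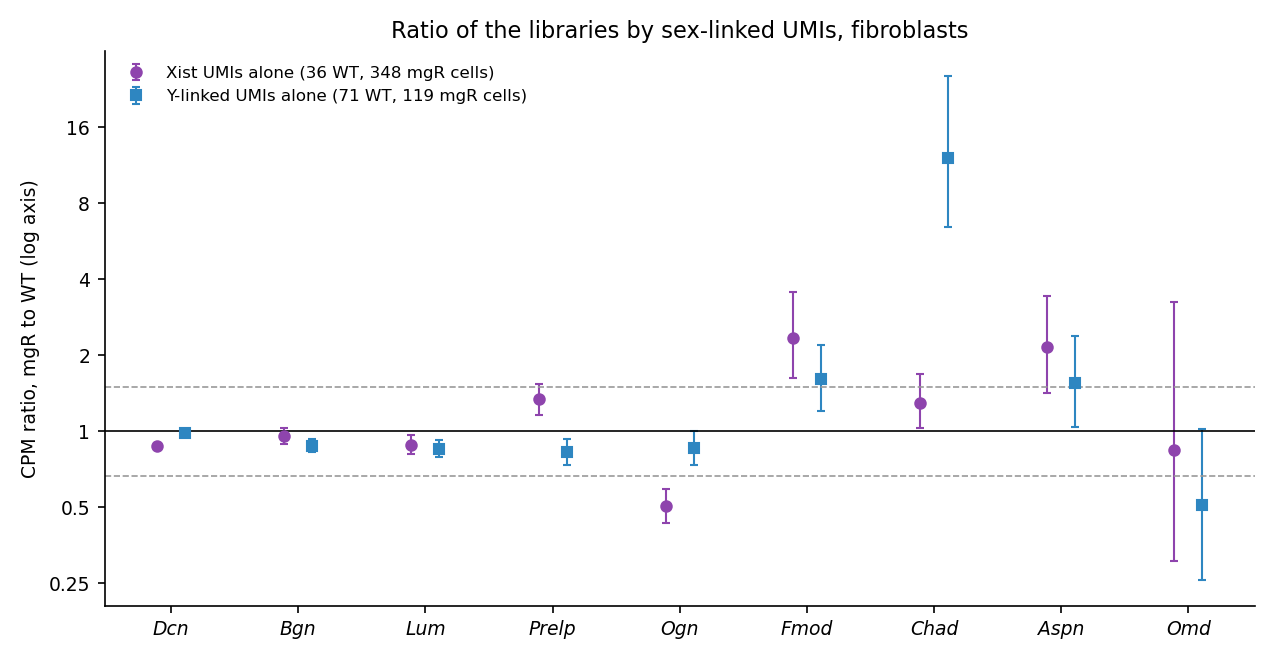
CPM ratio of mgR to WT for the 9 SLRP genes in fibroblasts with Xist UMIs alone and in fibroblasts with Y-linked UMIs alone, on a log axis with exact 95% intervals for counting error. The solid line marks equal levels and the dashed lines a 1.5-fold difference. Chad is far higher in mgR among cells with Y-linked UMIs and only slightly so among cells with Xist UMIs, and Prelp lies on opposite sides of 1.

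Because the sexes were unevenly represented, the ratios were also taken within cells of 1 sex-linked pattern. With Xist UMIs alone (36 WT and 348 mgR fibroblasts), Aspn had a ratio of 2.15 (1.42 to 3.42) and Fmod 2.35 (1.62 to 3.56). With Y-linked UMIs alone (71 and 119 fibroblasts), Aspn had 1.55 (1.04 to 2.38) and Fmod 1.61 (1.20 to 2.20). Over all fibroblasts these intervals stayed above 1. Within the Comp/Scx type, however, the Fmod ratio was 0.752 (0.505 to 1.17) for the Xist pattern and 2.44 (1.74 to 3.49) for the Y-linked one. Chad had 1.30 (1.03 to 1.68) with Xist UMIs and 12.1 (6.46 to 25.5) with Y-linked UMIs. In WT 72 of its 104 UMIs lay in Comp/Scx-type cells with Xist UMIs alone, of which there were 5. Ogn had 0.506 (0.435 to 0.591) and 0.857 (0.734 to 1.0), and Prelp 1.34 (1.16 to 1.54) and 0.831 (0.739 to 0.934). Comp/Scx-type cells were 13.9% of WT and 42.2% of mgR fibroblasts with Xist UMIs alone, but 28.2% and 22.7% of those with Y-linked UMIs alone.

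Genes that work with SLRPs were followed in lists, each to be read against the 5.77% of genes that were higher and the 6.37% that were lower. Among the list genes that follow, Fam20b, Chst12, Col11a1, Cilp2 and Thbs4 passed the limit of 100 UMIs only through the library in which they were higher, so they are described and the counts that hold them support nothing. Of 9 other family members, 2 had at least 100 UMIs in fibroblasts, and neither differed by 1.5-fold between the libraries. Epyc, the class III gene beside Lum and Kera, was at 51.0 CPM in WT and 34.8 CPM in mgR, a ratio of 0.682 (0.491 to 0.963), and Ecm2 was at 163 and 148 CPM, a ratio of 0.910 (0.763 to 1.09). Epyc was higher in Comp/Scx-type cells, by 2.06-fold in WT and 1.68-fold in mgR. Kera had 0 and 19 UMIs, all 19 in Comp/Scx-type cells. Podn had 18 and 32 UMIs, Chadl 12 and 41, Tsku 6 and 32, Optc 2 and 4, Podnl1 0 and 1, and Nyx 0 in both.

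Of 33 enzymes and transporters that build the glycosaminoglycan chains, 14 had enough UMIs, 2 were higher by 1.5-fold or more in mgR and 1 was lower, with a median log2 ratio of 0.04. Fam20b, the xylose kinase of the linker, had 13 and 106 UMIs and a ratio of 1.69 (0.947 to 3.28). Chst12, a chondroitin sulfotransferase, had 15 and 114 UMIs and a ratio of 1.58 (0.916 to 2.91). Both intervals held 1. B4galt1, a galactosyltransferase, was at 76.5 and 41.6 CPM, a ratio of 0.544 (0.413 to 0.724).

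Among 21 genes of the collagen fibril and its partners, 20 had enough UMIs, 1 was higher and 1 lower, with a median log2 ratio of -0.20. Col1a2 and Col3a1 are among those 20 and chose the cells. Col11a1, a cartilage fibril collagen, was at 9.56 and 20.3 CPM, a ratio of 2.12 (1.07 to 4.78). It had 8 UMIs in Comp/Scx-type and 1 in Ptx3/Igfbp3/Smoc2-type cells of WT, and 89 and 2 in mgR. The type ratios of 13.1 in WT and 47.0 in mgR thus rested on fewer than 3 counts in the latter type. Eln, which encodes elastin, was at 129 and 73.3 CPM, a ratio of 0.570 (0.462 to 0.708). Of 24 SLRP receptors and proteases, 17 had enough UMIs, 0 were higher and 3 lower, with a median log2 ratio of -0.33. These were Egfr, a decorin receptor (62.7 and 38.5 CPM, ratio 0.615, 0.455 to 0.840), the aggrecanase Adamts5 (120 and 73.1 CPM, ratio 0.609, 0.490 to 0.761) and the gelatinase Mmp2 (576 and 375 CPM, ratio 0.652, 0.592 to 0.719).

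Of 18 tendon and cartilage genes, 11 had enough UMIs, 2 were higher and 1 lower in mgR, with a median log2 ratio of 0.12, and 8 were higher in Comp/Scx-type cells of both libraries, where 3.68% of all genes were. Comp and Scx are among those 8 and chose the cells. Cilp, Cilp2, Thbs4, Hapln1 and Matn4, also among them, had enough UMIs only through the Comp/Scx type. In Ptx3/Igfbp3/Smoc2-type cells their UMIs were 0, 0, 0, 7 and 3 in WT and 8, 2, 0, 6 and 9 in mgR. The count of 8 is thus a description and no support. Comp was at 603 and 982 CPM, a ratio of 1.63 (1.49 to 1.78), and Cilp2, the gene most like Fmod across cells, at 12.7 and 31.3 CPM, a ratio of 2.45 (1.36 to 4.86). Thbs4, a tendon thrombospondin, was at 48.9 and 13.6 CPM, a ratio of 0.279 (0.188 to 0.418).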

How the data were processed

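Mitral valve leaflets were digested with collagenase A and elastase, viable cells were sorted, and 10x Genomics 3-prime libraries were made, 1 per genotype. The authors deposited counts of UMIs per gene and cell barcode, made with Cell Ranger 7.1.0 on mm10 per the labels. Neither the annotation nor whether intronic reads were counted was given in the sources used here. The filters of the study (200 to 5000 genes, at most 10% mitochondrial UMIs) were applied. Harmony, used by the study, was not. The members, lists and tests were chosen with earlier results of these data known.

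For each class in each library, the UMIs of a gene were added up and scaled to 1000000 (CPM). Sums carry exact Poisson intervals, shares Clopper-Pearson intervals, and ratios exact conditional binomial intervals. UMIs of 1 library are not replicates, so no P value is given. Genes counted as compared had at least 100 UMIs over both libraries, and a difference was counted from 1.5-fold. Where a gene had 0 UMIs, a floor of 3 counts was used, also for the levels said to be allowed. The exact upper limits are higher, for example 15.1 CPM in place of 12.3 CPM in WT endothelium-like cells. The ratio calculation was tested on simulated data. Other classes came from Leiden clusters (scanpy 1.11.5, resolution 0.8, 2000 variable genes, 50 components, 20 neighbors, members and sex-linked genes left out) that had 3 markers of a class, each in at least 20% of cells and 2-fold above the median cluster. They are called X-like. These names were rebuilt here, which can itself cause differences from the study. Doublets were kept. Scrublet marked 9 WT and 52 mgR cells, and leaving them out was an alternative.

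Named genes were the 9 members, list genes with at least 100 UMIs and a 1.5-fold difference, the other SLRPs, and for each member the 3 genes with the highest smaller r of the libraries among genes found in at least 5% of fibroblasts of each. Other genes stand in the text as markers. Alternatives covered the collagen limit, the type split, depth, doublets, scaling and sex-linked UMIs. Positions are from GENCODE on GRCm38, matched by gene identifier.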

Additional observations from a re-analysis of the deposited data

Results flagged for a closer look

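The mgR to WT ratios of Dcn and Lum lay on opposite sides of 1 in the fibroblast types, with intervals that did not reach 1. For Dcn the ratio was 1.09 (1.06 to 1.12) in Comp/Scx-type cells and 0.830 (0.811 to 0.849) in Ptx3/Igfbp3/Smoc2-type cells. For Lum it was 1.20 (1.09 to 1.32) and 0.854 (0.797 to 0.916), but the former was 1.04 (0.959 to 1.13), an interval that reached 1, with types taken from clusters past the collagen limit. Prelp had 1.34 (1.16 to 1.54) in fibroblasts with Xist UMIs alone and 0.831 (0.739 to 0.934) in those with Y-linked UMIs alone. None of these 3 differences between groups of cells was tested, since each rests on 1 library per genotype.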

How the results depend on the processing

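Across 12 alternatives, the mgR to WT ratio in fibroblasts stayed above 1 for Aspn (1.55 to 2.87), Fmod (1.29 to 2.35) and Chad (1.30 to 12.1). Fibroblast-like clusters in place of the collagen limit gave 1.06 for Dcn, 0.988 for Bgn, 1.01 for Lum, 2.0 for Fmod, 1.14 for Prelp, 1.03 for Ogn and 1.01 for Omd, so Dcn, Lum, Ogn and Omd crossed 1. A limit of 20 collagen UMIs gave 0.855 for Dcn, 1.0 for Bgn, 1.15 for Prelp and 7.78 for Chad, and a limit of 5 gave 0.988 for Dcn and 0.829 for Ogn. Xist UMIs alone gave 0.876 for Dcn, 0.885 for Lum, 2.35 for Fmod, 1.34 for Prelp, 0.506 for Ogn and 1.30 for Chad. Y-linked UMIs alone gave 0.982 for Dcn, 0.878 for Bgn, 1.55 for Aspn, 0.854 for Lum, 0.831 for Prelp, 0.857 for Ogn and 12.1 for Chad. Thinning to 2000 UMIs gave 0.989 for Dcn, 0.891 for Bgn, 1.0 for Lum and 0.665 for Ogn. An equal mix of types gave 1.29 for Fmod, 0.933 for Prelp and 2.56 for Chad. Dcn was 0.961 without Scrublet-marked cells and 0.969 as a mean of per-cell CPM. Chosen after seeing the data, leaving out the highest cell of each library gave 5.76 for Chad. The cause of these shifts was not tested.

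Comp/Scx-type shares of WT and mgR were 17.1% and 29.0% after thinning before the call, and 13.9% and 42.2% with Xist UMIs alone. From clusters they were 33.8% and 35.9% past the limit, nearly level, and 59.6% and 46.8% without it. They were 23.2% and 32.3% with at least 4 marker UMIs, and 28.2% and 22.7% with Y-linked UMIs alone, which turned the direction. Ptx3/Igfbp3/Smoc2-type shares were 37.1% and 26.9% after thinning, 65.5% and 61.2% from clusters past the limit, and 40.4% and 53.2% from clusters without it. They were 66.7% and 39.9% with Xist UMIs alone, 45.1% and 34.8% with at least 4 marker UMIs, and 57.7% and 53.8% with Y-linked UMIs alone. The cluster splits were chosen after seeing the data. They also turned the type ratio of Aspn in WT to 0.987. In Comp cluster cells past the limit, the mgR to WT ratio of Ogn turned to 1.30, and that of Omd was 0.679 (0.316 to 1.62). Over all cells of the Comp cluster, Omd was at 1.25 (0.633 to 2.69), on 11 and 42 UMIs. With genes of at least 20 UMIs, 1238 genes were higher and 1284 lower by 1.5-fold in fibroblasts, against 366 and 404 with 100 UMIs. No paired analysis was possible because there was 1 library per genotype.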
